A study of Homo sapiens with 12 samples.

Results

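Among 56832 gene names in the deposited table of MDA-MB-468 cells, 51 had a mean normalized value of 20 or more when the cells carried an added thyroid hormone receptor beta and had received T3, and a mean below 10 in each of the 3 other combinations of vector and treatment. The normalized value is the count of a gene divided by a size factor of its library. A mean of 20 or more in the treated receptor cells was met by 12586 names and means below 10 in the other groups by 42694. These 51 genes were chosen for that pattern, so their levels are given as a description and the pattern itself is not tested.

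The MDA-MB-468 line comes from a breast carcinoma and has a basal-like profile. Cells stably carrying the vector pCDH-TRB (the TRB pool, with thyroid hormone receptor beta, gene THRB) or its empty form (the EV pool) were kept for 24 hours in medium with charcoal-stripped serum, which holds little hormone, and then received the thyroid hormone T3 at 10 nM or its NaOH vehicle for 24 hours. Each of the 4 groups, EV vehicle, EV T3, TRB vehicle and TRB T3, had 3 RNA sequencing libraries, 12 in all. Each vector is represented by 1 pool, so a contrast of TRB with EV compares 2 pools, and both keep the line's own THRB gene.

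Thyroid hormone receptors are nuclear receptors that sit on DNA with or without hormone. Without T3 the receptor recruits corepressors, and T3 exchanges these for coactivators, so a gene can be held low by the empty receptor and raised by the occupied one. The preferred DNA element is a pair of AGGTCA-like hexamers in direct repeat. Among the 51 genes, THRSP (thyroid hormone responsive, also called Spot14), a nuclear protein of lipogenesis, is a textbook T3 target, and PPARGC1A encodes PGC-1 alpha, a coactivator that drives mitochondrial and gluconeogenic programmes and responds to T3 in liver and muscle.

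Sequences upstream of the genes are shown here because these genes were chosen for a shared pattern and because the receptor's hexamer is known. RefSeq promoter windows (250 bases before and 50 after an annotated start, build GRCh38.p14) were matched by symbol for 28 of the 51 genes, 39 windows in all. The hexamer AGGTCA, searched on both strands, was found in 3 of these 39 windows (7.7%), against 13.8% of all 35116 windows. A direct repeat of AGGNCA with 4 bases between the copies was found in 0 of 39 windows and in 0.18% of all windows. The looser hexamer AGGNCA, which contains every AGGTCA match, was found in 17 of 39 windows (43.6%), against 53.2% of all. The 250 bases before the start of APLN, the gene with the highest level (chrX:129654957-129655206, minus strand), and of THRSP (chr11:78063611-78063860, plus strand), printed 5′ to 3′ along the gene, hold no AGGNCA match. RET has a start inside the gene whose upstream stretch (chr10:43104515-43104764, plus strand) holds 3 AGGCCA, in capitals. The stretches around the 3 AGGTCA matches are printed with the match in capitals. That of FRMPD1 lies 68 bases before a start (chr9:37667931-37667956, plus strand) and that of MYLK3 88 bases before a start (chr16:46748417-46748442, minus strand). That of FAM182B lies 79 bases before a start (chr20:25796172-25796197, minus strand). Each of these starts lies inside the annotated span of its gene. All 3 matches read TGACCT along the gene, the hexamer on the opposite strand. A match describes letters in these windows and not binding, and windows without one say nothing about sites elsewhere.
APLN: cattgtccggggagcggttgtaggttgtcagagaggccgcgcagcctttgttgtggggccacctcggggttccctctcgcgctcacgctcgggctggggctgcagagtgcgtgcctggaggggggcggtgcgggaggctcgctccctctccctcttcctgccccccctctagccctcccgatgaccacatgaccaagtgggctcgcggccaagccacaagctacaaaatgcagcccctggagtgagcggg
THRSP: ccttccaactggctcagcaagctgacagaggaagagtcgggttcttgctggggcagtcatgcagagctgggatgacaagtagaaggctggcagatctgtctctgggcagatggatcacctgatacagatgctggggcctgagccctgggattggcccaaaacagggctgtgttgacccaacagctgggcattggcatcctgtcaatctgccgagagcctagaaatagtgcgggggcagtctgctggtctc
RET: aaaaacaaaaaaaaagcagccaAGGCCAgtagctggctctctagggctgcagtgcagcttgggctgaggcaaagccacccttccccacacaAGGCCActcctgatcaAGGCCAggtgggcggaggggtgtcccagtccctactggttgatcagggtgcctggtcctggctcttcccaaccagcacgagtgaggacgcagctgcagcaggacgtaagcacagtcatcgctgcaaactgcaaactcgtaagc
FRMPD1: tgcttaggggTGACCTacctccctgg
MYLK3: gggcctgggcTGACCTcggcctgtca
FAM182B: gtctccggccTGACCTctccacgtgg

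Levels below are CPM, the usual per-library scaling of read counts, with trimmed-mean (TMM) factors, unless raw counts are named. The libraries held 4241863 to 11955825 counts on genes, and the shallowest library with T3 was deeper than the deepest with vehicle. THRB stood at 43.4, 38.5, 140 and 329 CPM in EV vehicle, EV T3, TRB vehicle and TRB T3 libraries, so the labels of the pools hold, although the EV pool also expresses the receptor. EGFR, KRT5 and KRT8, markers of a basal-like epithelial line, were present in every group (EGFR at group means from 4274 to 5515 CPM). Of 7 basal-like markers 5 fell with T3 in TRB cells and 1 rose, KRT5 from 899.7 to 223.6 CPM, and KRT8 stood at 1452 and 1438 CPM. PGR was at 0 in all 12 libraries, and of the other luminal genes ESR1 (0.55) and ERBB2 (0.47) rose and GATA3 fell (log2 fold change -0.93). The mitochondrial ribosomal RNAs were lower in T3 than in vehicle libraries of both pools, and uneven among the vehicle libraries. MT-RNR1 stood at 3919 ± 3720 (SD) and 77.06 ± 18.75 CPM in EV vehicle and EV T3 libraries. In TRB vehicle and TRB T3 libraries it stood at 3069 ± 1534 and 126.1 ± 23.84 CPM. The part of these RNAs in the results below was not tested.

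Raw counts show how far "off" holds in the other groups. By normalized values, the lowest TRB T3 library exceeded the highest of the 9 other libraries for 49 of the 51 genes. By raw counts, which are not scaled for depth, it did so for all 51. By CPM, 14% of all genes tested had TRB T3 libraries above the 9 others. The rule chose genes for such a separation, so nothing is read from the comparison. No count was seen in any EV vehicle library for 3 genes (PPARGC1A, RFTN1 and KRT16P2), in any EV T3 library for 1 (PPARGC1A), and in all TRB vehicle libraries for 0 genes. When the bounds were asked of each library and not of the mean, 39 genes had every TRB T3 library at 20 or more, 34 had all 9 other libraries below 10, and 26 met both. So for most of the set the label "only with receptor plus T3" stands for a low level elsewhere and not for silence. The genes just inside the lower bound on TRB T3 were RNF182 (mean normalized value at the bound itself), FST and IL34 (20.3 each), and EID3, FAM184B and NCF4 (19.7 each) lay just outside. At the upper bound on the other groups DDIT4L and PTGS1 (highest other mean 9.67) lay inside with 1 unnamed locus, and CNGA2 (10.0), CDH5 and IL6R (10.3 each) outside, IL6R with a TRB T3 mean of 240.0.

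APLN (chromosome X, 129645259 to 129654937 in hg38, the build of all coordinates here) encodes apelin, a secreted peptide that signals through the receptor APLNR in vessels and heart. Its raw counts were 0, 3 and 2 in the EV vehicle libraries, 2, 3 and 3 with T3 in EV cells, 2, 3 and 3 for TRB with vehicle, and 567, 570 and 505 for TRB with T3. The 9 other libraries lay at 3 counts or fewer and overlapped one another, and the TRB T3 libraries stood alone. That is 48.0 ± 3.59 CPM (SD, n = 3) in TRB T3 libraries against 0.336 ± 0.0735 CPM in TRB vehicle libraries, a ratio of 143 (95% counting interval 72.4 to 332). APLN made up 17.6% of the summed CPM of the 51 genes in the TRB T3 group. In bulk RNA, more cells with the transcript and more transcript per cell cannot be told apart.

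PPARGC1A (chromosome 4, 23755041 to 23904089) had 0 counts in all 6 EV libraries, 2, 1 and 0 counts for TRB with vehicle and 67, 57 and 74 for TRB with T3. It was the member with the fewest counts outside the TRB T3 group, and it stood at 5.77 ± 0.671 CPM there. THRSP (chromosome 11, 78063861 to 78068351) stood at 0.241, 0.157 and 0.255 CPM with vehicle and 0.482, 0.87 and 0.249 CPM with T3 in EV cells, and at 0.789, 0.784 and 0.82 CPM with vehicle and 10.4, 11.1 and 10.4 CPM with T3 in TRB cells. The vehicle libraries of the pools did not overlap for THRSP, the TRB libraries being the higher, and the EV T3 libraries ranged across both. EGR3, an immediate early zinc finger transcription factor, reached 8.14 ± 0.161 CPM in TRB T3 libraries from 0.481 ± 0.412 CPM with vehicle.

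KCNJ12 (chromosome 17, 21376197 to 21419872) encodes the inward rectifier potassium channel Kir2.2. Its raw counts were 0, 1 and 0 in EV vehicle, 1, 2 and 1 in EV T3, 0, 0 and 1 in TRB vehicle and 55, 38 and 33 in TRB T3 libraries. The 9 other libraries held 2 counts or fewer, and the TRB T3 libraries spread from 2.88 to 4.71 CPM. KCNJ18, a near-identical copy of KCNJ12, was listed at 0 in every library, so reads of the pair may have been assigned to KCNJ12 or dropped. LDLRAD1 (chromosome 1, 54007299 to 54018186), which encodes a membrane protein with LDL receptor class A repeats, had raw counts of 0, 1 and 1 in EV vehicle, 3, 3 and 2 in EV T3, 0, 0 and 1 in TRB vehicle and 21, 30 and 35 in TRB T3 libraries. Its EV T3 libraries lay above its EV vehicle libraries without overlap, by 1 count in the closest case.

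**Figure D1:**
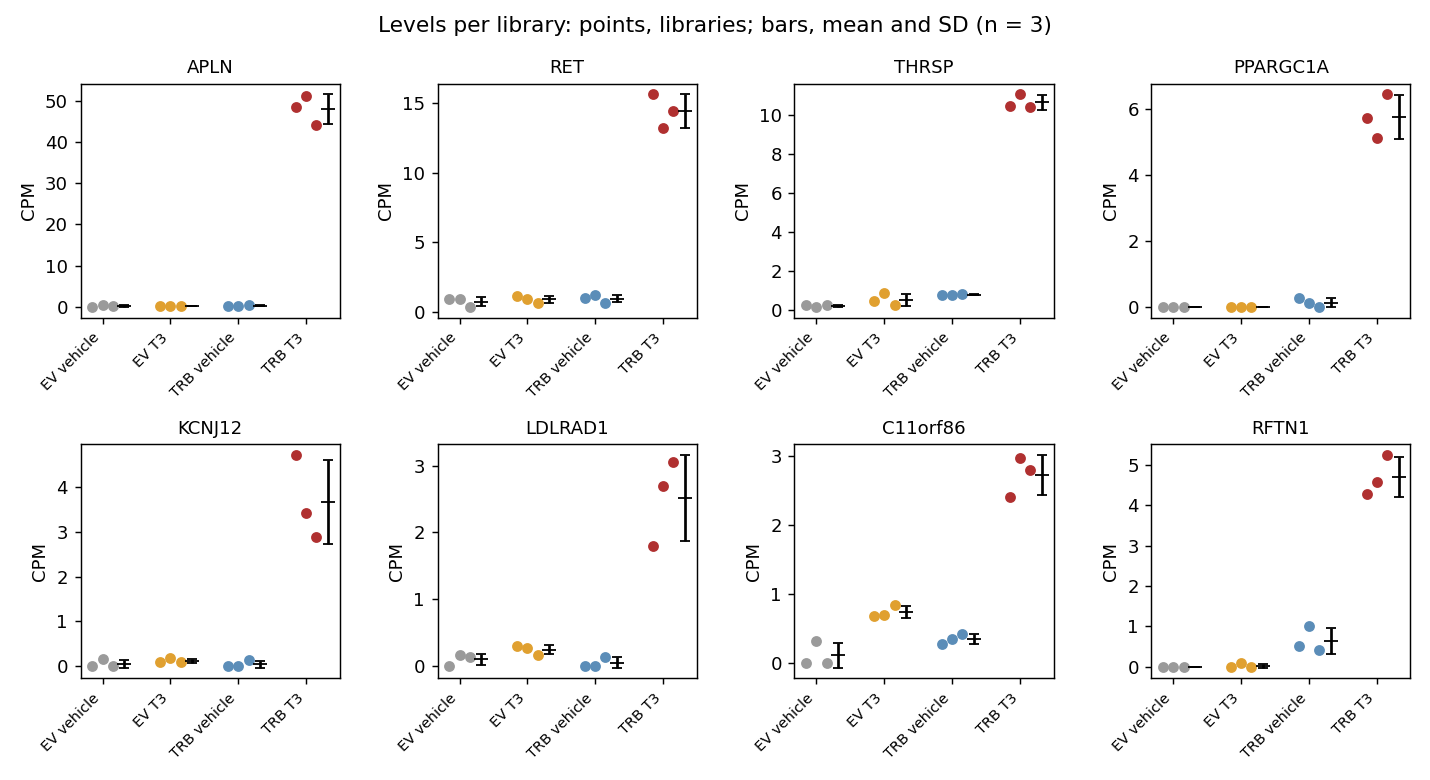
CPM (y axis, a scale of its own in each panel) of 8 of the 51 genes in the 4 groups; points are libraries and the black mark beside them is the mean and SD (n = 3). For APLN the TRB T3 libraries sit between 44.1 and 51.2 CPM and all others below 0.5, while C11orf86 and RFTN1 also show an intermediate group.

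Beyond these, the set holds several signalling genes. RET (chromosome 10, 43077027 to 43130351), a receptor tyrosine kinase for the GDNF family that is also estrogen responsive in breast cancer, had the next highest level among named genes. It stood at 0.963, 0.939 and 0.382 CPM in EV vehicle, 1.16, 0.957 and 0.663 CPM in EV T3, 1.05, 1.23 and 0.683 CPM in TRB vehicle and 15.6, 13.2 and 14.4 CPM in TRB T3 libraries. The 3 lower groups overlapped one another. The count ratio of TRB T3 to TRB vehicle was 14.3 (95% counting interval 9.52 to 22.6). The nonreceptor tyrosine kinase FES reached 5.31 ± 0.0957 CPM, the smallest relative spread between TRB T3 libraries (coefficient of variation 1.8%, median of the set 12.1%). PLXNA4, a semaphorin receptor, stood at 4.65 ± 0.741 CPM. Secreted ligands were at the low end: IL34, a ligand of the receptor CSF1R, at 2.31 ± 0.499 CPM, WNT11 at 2.33 ± 0.465 CPM, and FST, whose product follistatin binds activin, at 2.33 ± 0.231 CPM.

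Enzymes, channels and transporters formed another share of the set. TBXAS1 (thromboxane A synthase) stood at 8.01 ± 0.775 CPM in TRB T3 against 1.06 ± 0.343 CPM in TRB vehicle libraries, and PTGS1 (cyclooxygenase 1), which acts 1 step earlier in the same prostanoid pathway, at 2.96 ± 0.688 against 0.882 ± 0.218 CPM. PTGS1 reached 2.5 CPM in EV vehicle replicate 2, within the range of its TRB T3 libraries (2.31 to 3.68 CPM). BSND, whose product barttin is a subunit of kidney and inner ear chloride channels, stood at 8.92 ± 0.867 CPM against 0.336 ± 0.0735 CPM. The sulfatase gene ARSI reached 5.79 ± 1.09 CPM, the monocarboxylate transporter gene SLC16A7 4.29 ± 0.222 CPM, the zinc transporter gene SLC30A2 3.54 ± 0.316 CPM, the metalloprotease gene ADAM28 2.81 ± 0.417 CPM, and MYLK3, the cardiac myosin light chain kinase gene, 4.4 ± 0.786 CPM. Genes of adhesion, matrix and membrane were OLFML2B (7.83 ± 0.684 CPM), RFTN1, a lipid raft protein gene (4.7 ± 0.488 CPM), JAM2, a junctional adhesion molecule gene (4.2 ± 0.602 CPM), FBLN7, ITGAM and FGA, the gene of the fibrinogen alpha chain (2.72 ± 0.462 CPM). RP1L1, known from photoreceptors, reached 5.99 ± 1.23 CPM and C2CD4B 5.97 ± 1.06 CPM.

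The remaining named members were C11orf86, DDIT4L (an inhibitor of mTOR signalling), CCDC3, FRMPD1, ANKRD23, RNF182, the noncoding genes FAM182B and LINC00173, and the keratin pseudogene KRT16P2, with TRB T3 means from 2.25 (RNF182) to 4.17 CPM (CCDC3). A further 14 members carry names of genomic clones with no coordinates in the annotation and are counted but not named. The parent gene of KRT16P2, KRT16, went the other way under T3 in TRB cells, from 51.9 to 15.6 CPM, and how reads of such copies were assigned was not tested. FAM182A, a relative of FAM182B, was listed at 0 everywhere.

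**Figure D2:**
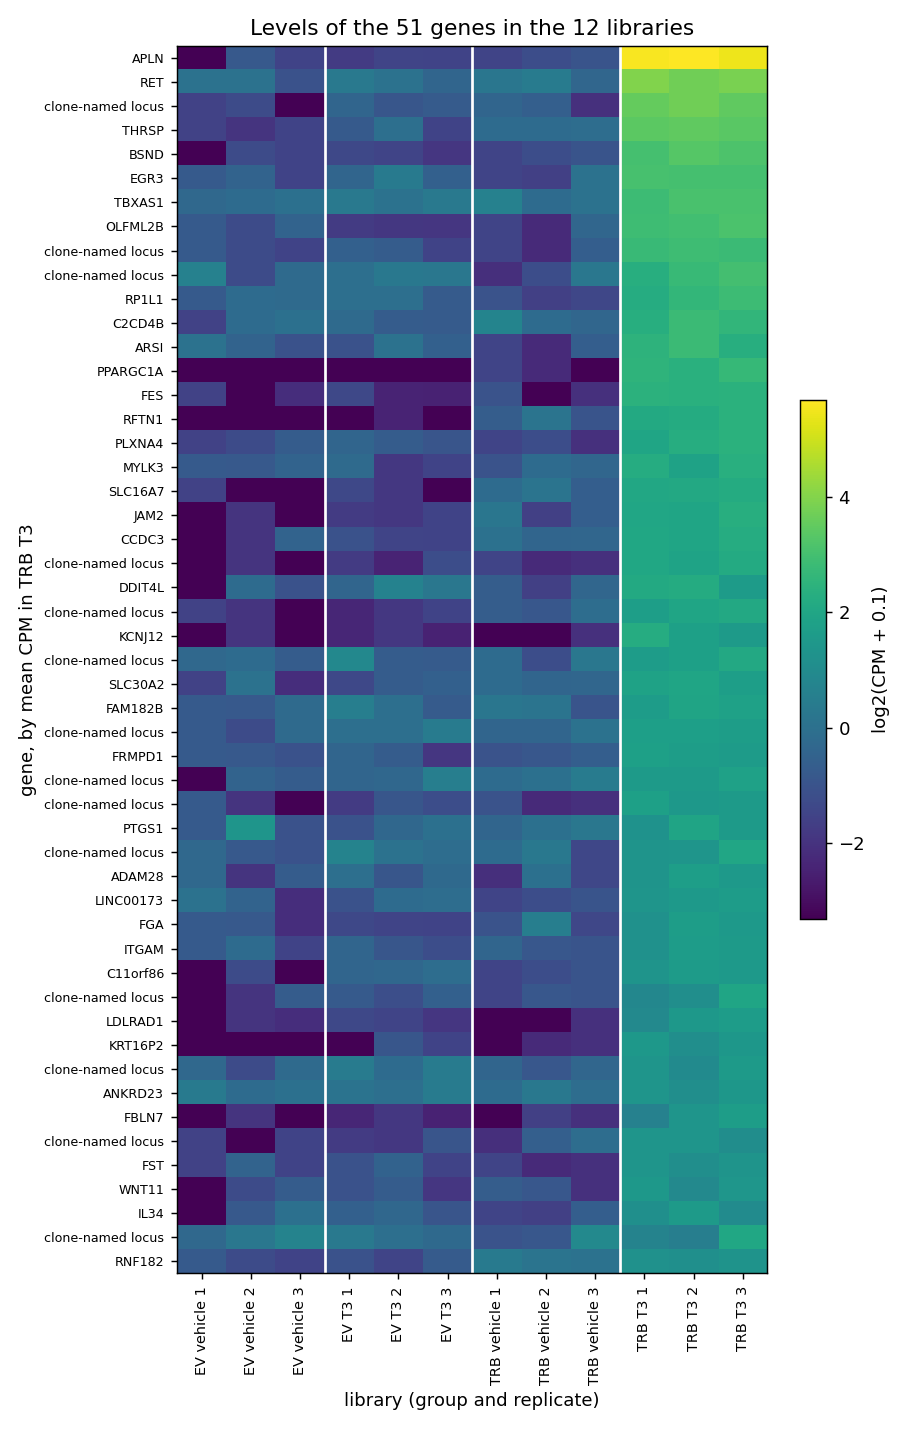
Levels of all 51 genes (rows, ordered by mean CPM in TRB T3) in the 12 libraries (columns, grouped by vector and treatment) as log2(CPM + 0.1) by colour. The TRB T3 columns are the brightest in nearly every row, and a few rows, such as RFTN1, SLC16A7 and DDIT4L, have a middle shade in another group.

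Most members were expressed at low levels even with receptor and hormone. In TRB T3 libraries the median member stood at 3.56 CPM, 36 of 51 lay under 5 CPM, and 4 reached 10 CPM. Per kilobase of exon, the scale on which genes can be compared, APLN led at 15 CPM per kb, followed by THRSP at 9.05, C2CD4B at 3.78, OLFML2B and C11orf86 at 2.29 each and RET at 2.08, and PLXNA4 was lowest at 0.284 among the 37 members with an exon length (median 0.984). All 51 passed the filter on low counts, which their TRB T3 libraries alone were enough to meet. By edgeR's quasi-likelihood test T3 raised all 51 in TRB cells (log2 fold changes from 1.09 for RNF182 to 7.10 for APLN, median 2.81), beside 22.4% of all 14549 genes tested. With T3, TRB cells were higher than EV cells for all 51, beside 21% of all genes. The difference of the T3 effect between the pools passed for 23 of the 51, beside 12.3% of all genes with a more positive effect in TRB cells. The rule used these contrasts, so nothing is read from these counts. Summed over the 51 genes, the level was 18.5 to 22.5 CPM in EV vehicle, 25 to 28.7 CPM in EV T3, 25.5 to 28.0 CPM in TRB vehicle and 261 to 281 CPM in TRB T3 libraries.

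The next comparison asked whether T3 left any trace on these genes in cells without the added receptor. The rule held both EV means below 10, which leaves out genes with a large rise, but it did not use the difference between them. The 51 genes entered the test through their TRB T3 counts, so the counts and medians over the set are a description, given beside those of all genes with nothing read from the comparison. C11orf86 (chromosome 11, 66975277 to 66977004), an uncharacterized open reading frame, was the 1 member of 51 that passed (edgeR, 1.96%, beside 4.54% of all genes tested called either way and 2.84% called higher). Its raw counts were 0, 2 and 0 in EV vehicle libraries, 7, 8 and 10 in EV T3 libraries, 2, 3 and 3 in TRB vehicle libraries and 28, 33 and 32 in TRB T3 libraries. The EV groups did not overlap, and neither did the TRB groups. The log2 fold change with T3 was 2.62 (SE 0.78, edgeR adjusted p = 0.0348) in EV cells and 2.97 (SE 0.41) in TRB cells. With EV vehicle replicate 2 left out, when the EV vehicle libraries hold no count, the fitted EV value became 5.83, which is no bound, and with any other library left out it lay between 1.89 and 2.67. The EV call rests on few counts: leaving out EV vehicle replicate 1 or 3 ended it (adjusted p by edgeR of 0.137 and 0.35), as did fits without EV T3 replicate 2 (0.0779) or 3 (0.0798), and with no filter on low counts (0.0595), and DESeq2 gave it no adjusted p.

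At an unadjusted p below 0.05 there were 5 members, C11orf86, KRT16P2, DDIT4L and 2 clone-named loci. KRT16P2 had 0 counts in every EV vehicle library and 0, 5 and 3 in EV T3 libraries. Its edgeR unadjusted p was 0.0151 and its adjusted p 0.16. With a floor of 3 counts in place of the EV vehicle group the ratio was 1.45, which is no lower bound. The exact counting interval of the KRT16P2 ratio started at 0.93, so an unchanged level was not excluded. DDIT4L had 0, 5 and 3 counts in EV vehicle and 7, 17 and 13 in EV T3 libraries, with overlapping CPM (log2 fold change 1.30, SE 0.54, edgeR unadjusted p = 0.0192, adjusted p = 0.183). Of the 51 log2 fold changes 41 lay above 0, 9 below and 1 (PPARGC1A, with no count) at 0, beside 49.6% of all genes tested above 0; the median was 0.43, beside 0.00 over all genes. The EV groups did not overlap for 9 members that were higher and 1 that was lower with T3 (OLFML2B, log2 fold change -1.40, SE 0.71, edgeR adjusted p = 0.317), beside 10.4% and 10.2% of all genes.

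The EV values were also read at equal depth. The EV T3 libraries were deeper than the EV vehicle libraries, and with all libraries thinned to 4241863 counts 31 members could still be tested. Of those 31, 11 lay above 0 and 18 below with a median of -0.02, whereas the same 31 at full depth had 23 above and 7 below with a median of 0.42. The 20 members that could not be tested after thinning had 18 above and 2 below at full depth, with a median of 0.71. The summed level as CPM of thinned counts was 18.2 to 23.1 in EV vehicle and 22.7 to 28.3 in EV T3 libraries, which overlap, while the sums at full depth did not. At these counts a T3 rise in EV cells was not detectable for most members: SEs ran from 0.42 to 1.80 with a median of 0.63, and the upper end of the 95% interval fell short of a 2-fold rise for 6 members, OLFML2B, C2CD4B, MYLK3, PTGS1, ANKRD23 and 1 clone-named locus. APLN had a log2 fold change of -0.19 (95% interval -1.71 to 1.32), KCNJ12 of 0.95 (-1.69 to 3.59), LDLRAD1 of 1.03 (-0.98 to 3.04) and THRSP of 1.24 (-0.13 to 2.60), and none of these passed. KLF9, a T3 target outside the set, went from 2.95 to 13.0 CPM in the same EV libraries (log2 fold change 2.13, SE 0.18, edgeR adjusted p = 5.67e-15).

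**Figure D3:**
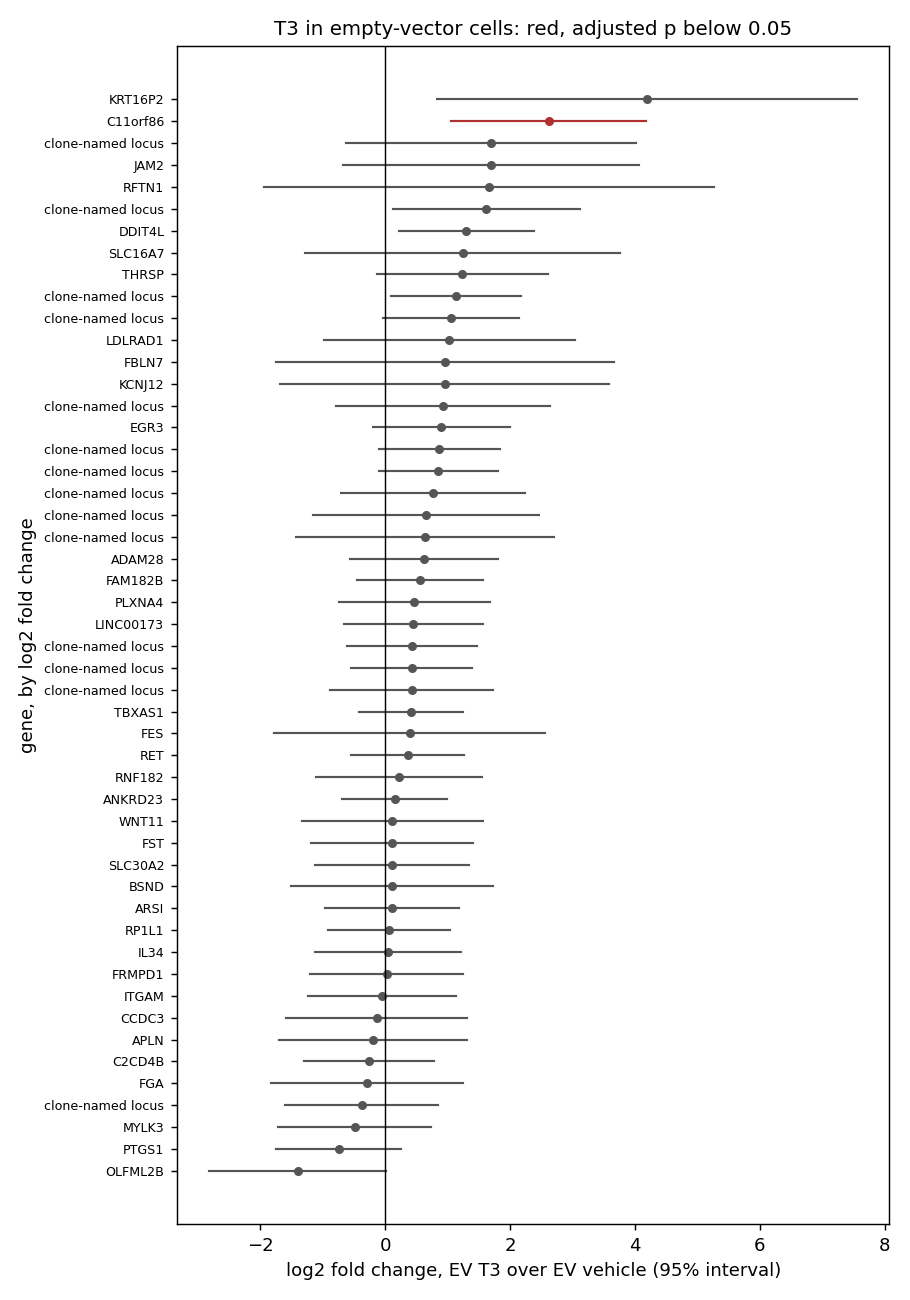
Log2 fold change of T3 over vehicle in EV cells (x axis) with its 95% interval for 50 of the 51 genes (rows, ordered by fold change); PPARGC1A, with no count in EV cells, is left out. C11orf86, in red, is the gene past the threshold, and most other intervals span 0.

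The receptor pool without hormone was compared next, a comparison that shares the EV vehicle libraries with the one above. The rule held both vehicle means below 10 without using their difference, so here too the counts over the set are a description. TRB vehicle libraries were higher than EV vehicle libraries for 4 of 51 members (edgeR, 7.84%, beside 7.86% of all genes tested higher and 15.3% called either way), and lower for 0. RFTN1 (chromosome 3, 16313574 to 16514026) had 0 counts in each EV vehicle library and 4, 9 and 3 in TRB vehicle libraries. Its edgeR adjusted p was 0.0014. With a floor of 3 counts in place of the EV vehicle group the ratio was 4.11, which is no lower bound. The exact counting interval of the RFTN1 ratio started at 2.97. SLC16A7 (chromosome 12, 59596067 to 59789855) had 1, 0 and 0 against 6, 9 and 4 counts (log2 fold change 3.57, SE 0.94, edgeR adjusted p = 0.00409). JAM2 (chromosome 21, 25639272 to 25717562) had 0, 1 and 0 against 8, 2 and 4 counts (3.15, SE 1.00, edgeR adjusted p = 0.0223). RNF182 (chromosome 6, 13924446 to 13980302) had 2, 2 and 2 against 9, 9 and 7 counts (1.64, SE 0.57, edgeR adjusted p = 0.0398). For these 4 genes the groups did not overlap, TRB being the higher. With the 1 EV vehicle library that held a count left out, the fitted value became 5.97 for SLC16A7 (without replicate 1) and 5.5 for JAM2 (without replicate 2), neither of them a bound.

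THRSP came next in order of p and missed the threshold (log2 fold change 1.81, SE 0.66, edgeR adjusted p = 0.0515). The calls of SLC16A7, JAM2 and RNF182 each ended when EV vehicle replicate 3 was left out (adjusted p by edgeR of 0.0609, 0.16 and 0.194). JAM2 was also lost without EV vehicle replicate 1 (0.0676) or TRB vehicle replicate 1 (0.173), with thinned counts (0.234) and by DESeq2 (0.0881). RNF182 was lost without any 1 of the 6 libraries, with no filter (edgeR adjusted p = 0.0999) and by DESeq2 (0.165), and RFTN1 lay at 0.0507 with counts thinned to the shallowest library. Over the 51 members 36 log2 fold changes lay above 0 and 15 below (median 0.36), beside 49.9% of all genes above 0. The vehicle groups did not overlap for 8 members that were higher in TRB and 1 that was lower (RP1L1), beside 15.3% and 14.8% of all genes.

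Where the genes lie was not used by the rule. The 37 members with coordinates (34 of them protein-coding, beside 96.3% of the tested genes with coordinates) were spread over 18 chromosomes with at most 4 on 1, and the closest pair, BSND and LDLRAD1 on chromosome 1, lay 0.98 Mb apart. No pair of these members was within 100 kb. The 14 clone-named members could not be placed, and some of them carry the name of the same clone. The nearest tested genes with coordinates on both sides, 74 in all, were then read for T3 in TRB cells. The rule did not use this effect for them. Coordinates were known for 12580 of the 14549 genes tested, so a nearer gene without them could be missed. Of these neighbours 33 were higher and 13 lower with T3 (44.6% and 17.6%), beside 23% and 24.1% of all 12543 tested genes with coordinates outside the set. By 2-fold or more 12 were higher (16.2%, beside 3.32%) and 1 lower. Within 100 kb of the member 23 of 46 neighbours were higher and 4 lower, and farther away 10 of 28 were higher and 9 lower. The difference between near and far neighbours was not tested, and neighbours of gene-dense stretches share their surroundings.

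The neighbours of APLN, PPARGC1A, KCNJ12 and LDLRAD1 had log2 fold changes under 0.5 with T3 in TRB cells, 4 of the 8 past the test. OCRL (52.7 kb away) and ZDHHC9 (148.4 kb away), on both sides of APLN, had -0.08 and 0.35 (ZDHHC9 past it). The nearest tested genes around PPARGC1A were far from it, ADGRA3 at 1239 kb and DHX15 at 613.4 kb. They had 0.09 and 0.18 (DHX15 past it). MAP2K3 (0.26, past it) and C17orf51 (0.32) flank KCNJ12, and LRRC42 (0.08) and TMEM59 (0.48, past it) flank LDLRAD1. These 8 genes were chosen by their place and not by the size of their change.

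The 12 neighbours that rose 2-fold or more lay beside 11 members. SOX7 (beside RP1L1) had a log2 fold change of 3.32, STC1, the gene of the hormone stanniocalcin 1 (439 kb from ADAM28), 3.09, SYT12 (30 kb from C11orf86) 2.67, and FURIN, a proprotein convertase gene (0.2 kb from FES), 2.48. FURIN stood at 31.7, 34.3, 29.96 and 168 CPM in EV vehicle, EV T3, TRB vehicle and TRB T3 libraries. CSF1R, the receptor of the IL34 ligand (183 kb from ARSI), had 2.23 and levels of 4.24, 5.51, 8.21 and 38.9 CPM in the same order. MTSS1L (0.5 kb from IL34) had 2.14, FGG, the fibrinogen gamma chain gene beside FGA, 1.83, TMEM61 (beside BSND) 1.75, HIPK2, a kinase gene overlapping TBXAS1, 1.53, PC, the pyruvate carboxylase gene (17 kb from C11orf86), 1.09, MPRIP (210 kb from KRT16P2) 1.09, and PYCARD, an inflammasome adaptor gene beside ITGAM, 1.03. TRIM63, a muscle ubiquitin ligase gene beside SLC30A2, was the neighbour that fell 2-fold or more (-1.03, SE 0.38), a call lost by DESeq2 (adjusted p = 0.132) and without TRB vehicle replicate 1 (edgeR adjusted p = 0.0777) or TRB T3 replicate 1 (0.0986). Of these 13 neighbours 5 also passed for T3 in EV cells: STC1 (0.94), SYT12 (0.90), PC (0.39), MPRIP (0.22) and MTSS1L (0.22), the last not past the test when EV vehicle replicate 1 or 3 was left out (adjusted p by edgeR of 0.0578 and 0.16) or with thinned counts (0.17). Of all 74 neighbours 6 passed in EV cells, beside 4.54% of all genes tested called either way and 2.84% called higher. The 13 were named for their change in TRB cells, so nothing is read from the 5. C11orf86 lies between PC and SYT12, which were both higher with T3 in EV cells as well.

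**Figure D4:**
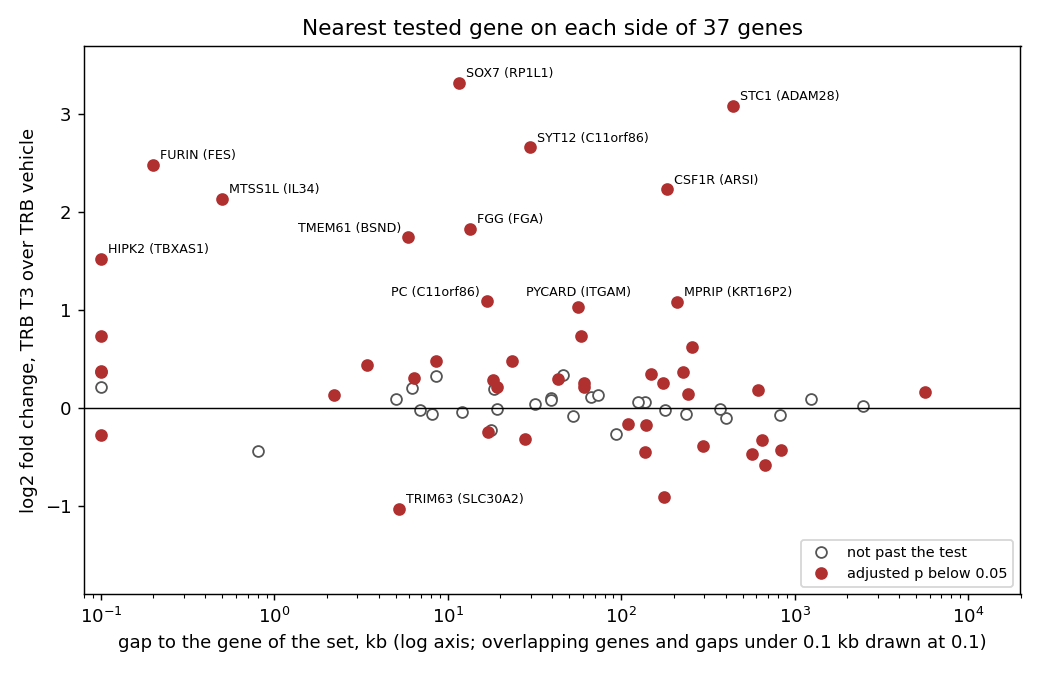
Log2 fold change with T3 in TRB cells (y axis) of the 74 nearest tested neighbours against the gap to the member beside them in kb (x axis, log scale); filled points passed the test, and labels give the neighbour and, in brackets, the member. The 12 neighbours that were higher by 2-fold or more lie between 0 and 439 kb from the member, above a band of points near 0.

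A member could hold reads of a gene it overlaps or adjoins. The sources do not say whether counting used strand, which could separate only genes on opposite strands. TBXAS1 and HIPK2, IL34 and MTSS1L, and THRSP and NDUFC2 lie on opposite strands. The other pairs with a ratio below lie on the same strand. In the annotation 19 members overlap another gene. For TBXAS1, which overlaps HIPK2 on the opposite strand, the member's CPM per 100 CPM of the partner was 0.695, 1.01, 0.669 and 1.75 in EV vehicle, EV T3, TRB vehicle and TRB T3 libraries. For IL34 and MTSS1L it was 0.7, 0.746, 0.751 and 1.15, for FES and FURIN 0.387, 0.446, 0.591 and 3.16, and for THRSP and NDUFC2 0.334, 0.802, 1.12 and 11.5. All 4 members rose by more than their partner in TRB cells, and TBXAS1 and IL34 the least so. For RP1L1 and SOX7 the ratio was 24.8 in TRB vehicle and 48.7 in TRB T3 libraries, and for FGA and FGG 2.81 and 3.18. For BSND and TMEM61 it was 21.1 and 170.0 in these groups. For C11orf86 and SYT12 it was 0.0658, 0.248, 0.246 and 0.313 in the 4 groups, nearer to level between the TRB groups than between the EV groups. FGG rose nearly as much as FGA, while FGB, the gene of the fibrinogen beta chain, did not pass (log2 fold change -0.04, SE 0.13). No ratio was read for ANKRD23, RFTN1 and CCDC3, which also overlap tested genes. With T3 in TRB cells ANKRD23 had a log2 fold change of 1.36. It overlaps ANKRD39 (0.74) on the same strand and CNNM3 (-0.27) on the opposite strand. RFTN1 (2.79) overlaps OXNAD1 (0.22, not past the test) and CCDC3 (2.45) overlaps OPTN (0.37), both on opposite strands. What part of a member's counts came from a partner was not tested.

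The pathways of the 4 marker genes were read from lists that each hold the member itself, beside 22.4% of all genes called higher and 21.9% called lower. In the apelin system APLN and FURIN were higher with T3 in TRB cells, and MME (-1.12), the gene of the peptidase neprilysin, was lower. The receptor gene APLNR had 0, 0, 2 and 4 counts over the groups, too few to test. Of 28 tested PGC-1 coactivators, partners and targets 14 were higher and 4 lower, led by PPARGC1A, UCP2 (1.56), FNDC5 (1.44) and the sister coactivator PPARGC1B (1.33); the nuclear receptor gene ESRRA rose by 0.75, and TFAM and NRF1, regulators of mitochondrial DNA and respiratory genes, did not pass. The list's median was 0.17, beside 0.00 for all genes. KCNJ12 was the 1 of 3 tested inward rectifier genes that passed, and KCNJ11 and KCNJ14 did not. Of 15 tested LDL receptor relatives 5 were higher, among them LRP3 (1.05), and 7 lower, among them SORL1 (-0.85) and LDLRAD4 (-1.01).

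Of 15 tested classical T3 responsive genes 13 were higher in TRB cells and 0 lower (median 0.88; FASN at -0.05 and NRGN at -0.23 did not pass), with KLF9 (3.45), SLC2A4, the gene of the glucose transporter GLUT4 (2.18), HR, a T3-induced corepressor gene (1.83), and DBP, a clock output gene (1.18) beside THRSP. In EV cells 3 of the 15 were higher, KLF9, UCP2 and DBP, and 1, FASN, was lower. MME was also lower with T3 in EV cells (-0.18, edgeR adjusted p = 0.0245). In EV cells the PGC-1, inward rectifier and LDL receptor lists had 2, 0 and 0 genes higher and 0, 0 and 1 lower. Over all genes tested, 2.84% were called higher and 4.54% called either way in EV cells. All lists were drawn up with results of these data known, so they are no independent support.

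Because several members are known from other tissues, markers of those tissues were read beside them. Of the leukocyte markers CD14 stood at 29.96, 51.3, 19.6 and 187 CPM in EV vehicle, EV T3, TRB vehicle and TRB T3 libraries, while PTPRC, CD3E and CD68 stayed at or below 0.321 CPM in every group. Of 5 endothelial markers PECAM1 and CDH5 were higher and KDR lower, with sums of 3.91 to 6.02, 4.61 to 5.3, 4.21 to 4.37 and 6.2 to 6.82 CPM in the same order. Among muscle markers MYH6, ACTN2 and MYOG were at 0 in all 12 libraries, and among neural markers SNAP25 and RBFOX3 were. TNNT2, of the muscle list, stood at 1.2 to 1.62 CPM and did not pass, and SYP, of the neural list, at 0.477 to 0.859 CPM. The fibroblast genes COL1A2, DCN and LUM were at 0 as well, while COL1A1 stood at 17.0 CPM in TRB vehicle and 20.3 CPM in TRB T3 libraries (log2 fold change 0.26, edgeR adjusted p = 0.0195). The part of CD14, COL1A1 and the endothelial genes in the results was not tested.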

How the data were processed

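RNA sequencing of MDA-MB-468 pools gave 12 libraries in 4 groups. The submitters' processing notes name HTSeq 0.10, STAR 2.7, CASAVA 1.7, DESeq2 and hg38, without saying if reads were counted by strand. The deposited raw counts are whole read counts per gene; lines that name no gene (31.9% to 39.2% of counts) were left out. The authors' normalized table, treated here as a score, holds those counts over a single factor for each library, as whole numbers.

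The rule was applied to the normalized values; all tests used the counts. Over all groups, edgeR 4.0.16 (R 4.3.3, limma 3.58.1; filterByExpr with minimum count 10 and total 15, TMM scaling, quasi-likelihood test, 8 residual degrees of freedom) tested 14549 genes, with Benjamini-Hochberg adjustment over all of them and a threshold of 0.05; it was tested on simulated data. DESeq2 1.42.0, other scalings and filters, thinned counts and leaving out each library were alternatives. The labels do not say whether libraries are separate cultures, so p-values measure the spread between these libraries. Depth was 4241863 to 11955825 gene counts. Intervals of count ratios are exact (95%), cover counting error only, and the floor for groups at 0 is 3 counts.

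The annotation gave coordinates for 29503 of 56832 names and 37 of 51 members. The members and lists were chosen with earlier results of these data known. Genes were named by a rule: the 4 markers, the 15 highest in TRB T3, members past the test or at unadjusted p below 0.05 in EV cells or past it between the vehicle groups, the 3 genes on each side of each bound, THRB, KLF9 and HR, and neighbours or list genes that passed with a change of 2-fold or more. Other members were named because every member is accounted for, and other list or neighbouring genes after their values were seen. The loose hexamer was added after seeing the data. Some genes of the lists are not reported here.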

Additional observations from a re-analysis of the deposited data

Results flagged for a closer look

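The effect of T3 differed between the TRB and EV pools for 23 of 25 genes outside the set, by edgeR's interaction test (largest adjusted p = 0.00957). It was more positive in TRB cells for 21, beside 12.3% of all genes tested. Most of the 25 were named for a change of 2-fold or more with T3 in TRB cells. That choice favours such a difference, so nothing is read from the count. Values here are the log2 fold change with T3 in TRB cells minus that in EV cells. Among neighbours of the 51 genes the difference was positive for SOX7 (3.04), STC1 (2.14), SYT12 (1.77), FURIN (2.36), CSF1R (1.80), MTSS1L (1.92), FGG (1.75), TMEM61 (1.78), HIPK2 (1.62), PC (0.70), MPRIP (0.87) and PYCARD (0.79). Among genes of the lists and the receptor itself it was positive for PPARGC1B (1.24), UCP2 (1.2), FNDC5 (2.04), LRP3 (0.85), KLF9 (1.32), HR (1.7), DBP (0.49), SLC2A4 (1.74) and THRB (1.41). It was negative for MME (-0.94) and LDLRAD4 (-1.0). The 51 genes are not counted here, since they were chosen on this pattern, and groups of 3 libraries were not searched for outlying samples.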

How the results depend on the processing

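The number of genes met by the rule was 28 with a TRB T3 mean of 30 or more and 26 with the bounds held in every library. It was 19 with other means below 5 and 100 with other means below 15. Leaving out 1 library gave 48 to 53, and 45 of the 51 were kept without TRB T3 replicate 3. Thinned counts gave 53 genes, 39 of them among the 51. TMM-scaled counts in place of the deposited values gave 50 genes, 46 of them among the 51. Of the 51, the 1 called for T3 in EV cells became 0 by DESeq2, with no filter, with thinned counts and with only the groups compared, where the filter left 1 member; leaving out 1 library gave 0 to 1. The 4 called between the vehicle groups became 2 by DESeq2, 1 with thinned counts and 0 with only the groups compared, where no member was left; leaving out 1 library gave 1 to 5, the 1 without EV vehicle replicate 3. The 51 called for T3 in TRB cells became 31 with thinned counts, when 31 could be tested, and 50 to 51 without 1 library. The 41 members above 0 in EV cells became 11 of 31 with thinned counts, 0 of 1 with only the groups compared and 35 to 43 without 1 library. Neighbours called numbered 43 to 46. With a replicate block the counts were 1, 4, 51 and 41, unchanged. The 18 same-numbered pairs had r from -0.124 to 0.083, 0 of them over 0.1, and 3 libraries correlated best with their own number. No pairing by number was seen, and groups of 3 libraries cannot exclude one. The alternatives for the count of members above 0 were added after seeing the data. No gene called in the full fit changed sign. The split of members above and below 0 in EV cells turned among the 31 that could be tested after a single random thinning, as given.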
